A study of Mus musculus and Rattus norvegicus with 12 samples.

Results

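Genome-wide expression was compared between 3 mouse pXEN lines (pXEN2, pXEN4 and pXEN6) and 3 mouse XEN lines (XEN1, XEN2 and XEN5), which are 6 of the 12 lines profiled in the study. The lines were taken as the samples titled pXEN and XEN, and the reverse-strand gene counts of their total RNA libraries were used. All 6 lines were derived separately from blastocysts of the ICR strain, so replicate spread here is spread between lines, and each line is 1 library collected after 2 days of culture. pXEN2 is a male line at passage 19 to 20, pXEN4 a female line at passage 17 to 18 and pXEN6 a female line at passage 19 to 21. XEN1 is a female line at passage 9 to 10, XEN2 a male line at passage 20 to 21 and XEN5 a male line at passage 19 to 21. The pXEN lines were cultured like the rat XENP lines, whose medium the labels cite without listing it, and the XEN lines on mouse embryo fibroblast feeders in fetal bovine serum. Kind of line and culture therefore differ together and cannot be told apart. The mouse ES lines ES2 (male) and ES3 (female), grown with serum, LIF and inhibitors of 2 kinases, entered the fit of the spread and are quoted as a reference level.

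XEN lines are stem cells that stand for the primitive endoderm, the layer of the blastocyst that forms the parietal and visceral endoderm of the yolk sacs. GATA6, GATA4, SOX17 and SOX7 are transcription factors that set up and hold this lineage, FGF signalling through ERK drives its specification, and the pluripotency factors OCT4 and NANOG mark the neighbouring epiblast. Rat XENP lines were described as an earlier form of the lineage that still holds some Oct4, and the pXEN lines are mouse lines kept in the same way.

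The 6 libraries had 2756457 to 3322310 counts assigned to genes, of which the ribosomal RNA precursor Rn45s took 20.7% to 40.0% in pXEN and 27.1% to 39.4% in XEN. Between 12190 and 13488 genes were detected per line. Spearman's rho of CPM (counts normalized to the scaled library size) over the 10895 tested genes ran from 0.932 to 0.961 within pXEN, from 0.920 to 0.941 within XEN and from 0.883 to 0.925 between the groups, so no pair across the groups reached the median of either group. The endoderm label held in all 6 lines: the summed level of 8 endoderm markers (Gata6, Gata4, Sox17, Sox7, Foxa2, Pdgfra, Dab2, Cubn) was 1328 to 1711 CPM in pXEN and 1269 to 2463 in XEN against 6.17 and 6.63 in ES2 and ES3. The pluripotent markers Nanog, Sox2, Esrrb and Tdgf1 had 0 or 1 count in sum per pXEN or XEN line.

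The XEN libraries also held transcripts of fibroblasts. A fibroblast list of 35 genes summed to 25.7, 32.7 and 35.9 CPM in pXEN2, pXEN4 and pXEN6 and to 564, 611 and 846 CPM in XEN1, XEN2 and XEN5, against 21.8 and 26.5 in the ES lines. Every XEN line was far above every pXEN line, and 20 of the 35 genes had 0 counts in all pXEN lines. Of 17 defining fibroblast markers, Fap, Meox1 and Osr1 had 0 counts in all 6 lines. The 17 summed to 10, 12 and 28 counts in pXEN, nearly all of them from Pdgfrb, and to 368, 609 and 801 counts in XEN. Col3a1, a collagen of fibroblasts, had 0 counts in every pXEN line and 66, 122 and 162 in XEN.

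A second measure did not use fibroblast genes. The 4 Y-linked genes Eif2s3y, Ddx3y, Kdm5d and Uty had 22 counts in the female line XEN1, against 0 in pXEN4 and 1 in pXEN6, the female pXEN lines, and 1 in the female line ES3. Xist, the RNA that coats the inactive X chromosome of female cells, had 34 and 33 counts in the male lines XEN2 and XEN5, against 0 in the male line pXEN2 and 1 in the male line ES2. In CPM, the Y-linked sum of XEN1 was 8.57 beside 193 in XEN2 and 356 in XEN5, and Xist was 9.45 and 8.72 in XEN2 and XEN5 beside 659 in XEN1. All 3 XEN lines thus held some RNA that is typical of the other sex, and none of the pXEN lines did beyond 1 count. The share of each XEN library that comes from feeder cells, and so its part in the differences given here, was not tested.

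**Figure D1:**
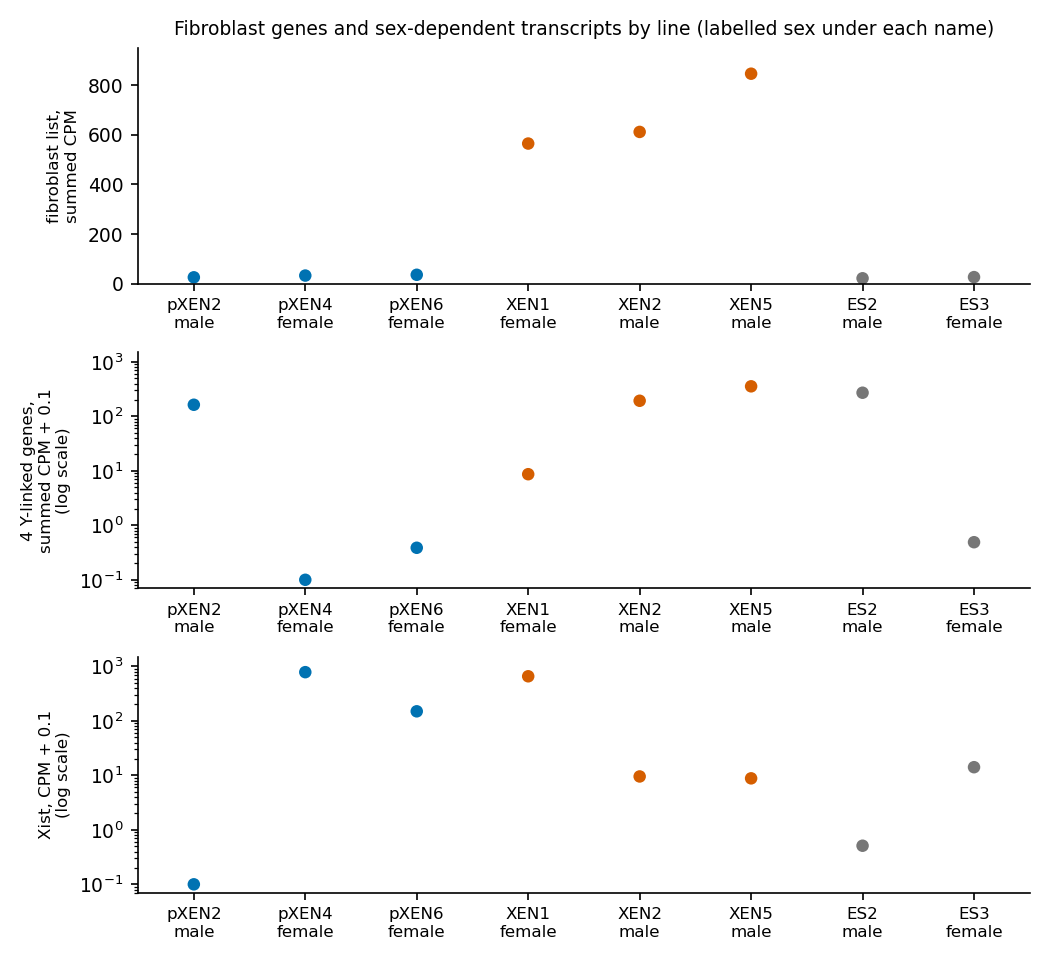
Each point is 1 library, with the labelled sex under its name: summed CPM of the fibroblast list (top, linear axis), summed CPM of 4 Y-linked genes (middle) and Xist (bottom), both with 0.1 CPM added on a log axis. The XEN lines sit at 564 to 846 CPM for the fibroblast list, the Y-linked sum of the female line XEN1 lies above those of the other female lines, and Xist in the male lines XEN2 and XEN5 above that in the other male lines.

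Of 10895 genes tested, 496 (4.55%) differed between the groups at an adjusted p under 0.05 (quasi-likelihood test of edgeR, Benjamini-Hochberg adjusted, 1652 genes at an unadjusted p under 0.05). In pXEN 100 genes (0.918% of those tested) were higher and in XEN 396 (3.63%). The pXEN and XEN libraries did not overlap for any of the 496, which is also true of 19.8% of all genes tested. Leaving out the genes of the matrix and fibroblast lists, together with collagens, laminins, matrix proteases and Hox genes, left 96 genes higher in pXEN and 340 higher in XEN. Without XEN1 the genes higher in pXEN fell to 63 (61 outside those lists, and 63 outside them without pXEN2), and without pXEN2 the genes higher in XEN fell to 255 (205 outside those lists).

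The differences were of unlike kinds in the 2 directions. Among the 96 genes higher in pXEN the median absolute log2 fold change was 2.40 (2.38 with genes at 0 counts set to a lower bound), and 17 had at most 3 counts over the XEN lines. Among the 340 higher in XEN the median was 3.70 (3.41 with bounds), and 154 had at most 3 counts over the pXEN lines, 67 of them none at all. The 56 matrix or fibroblast genes higher in XEN had a median of 6.77, and 42 of them had at most 3 counts in pXEN. ES lines reached at least 10 CPM for 53 of the 96 genes higher in pXEN (55.2%) and for 142 of the 340 higher in XEN (41.8%). They did so for 7 of the 56 matrix or fibroblast genes (12.5%). All of these shares lay below that over all genes tested, 66.9%. The fibroblast sums of the ES lines were as low as those of pXEN, and the part of feeder RNA in these counts was not tested. The 3 XEN lines were in the order of their fibroblast sums (XEN1, XEN2, XEN5) for 17.6% of the 340 genes, for 30.4% of the 56 and for 15.4% of all genes tested.

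**Figure D2:**
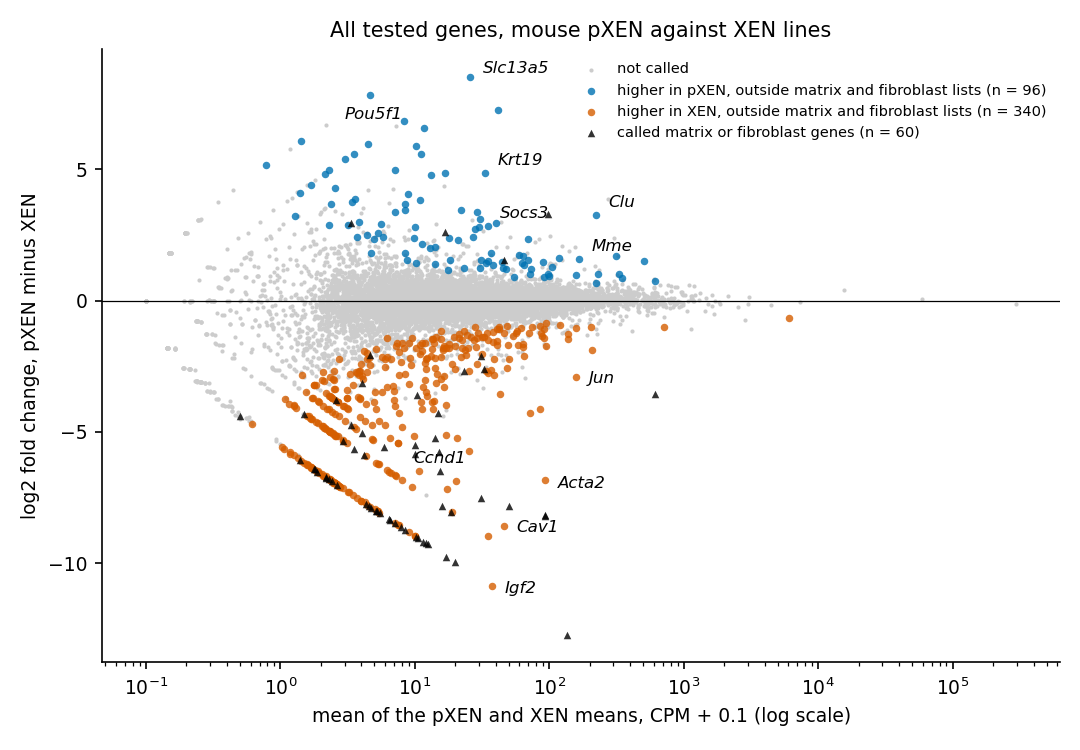
Each point is 1 of 10895 tested genes, placed by the mean CPM of both groups (0.1 added, log axis) and by its log2 fold change, positive when higher in pXEN. Coloured points are called genes outside the matrix and fibroblast lists (96 higher in pXEN, 340 higher in XEN), black triangles called genes within those lists, and the slanting rows of points at lower left are genes with few or no counts in pXEN.

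Endoderm regulators were expressed in both groups, with few calls between them. Of 24 tested endoderm regulators and general extraembryonic endoderm genes, 0 were called higher in pXEN and 1 higher in XEN (Runx1, better known as a blood regulator), with a median log2 fold change of -0.12 beside 0 over all genes tested. These counts are near the shares over all genes tested, 0.918% and 3.63%. At an unadjusted p under 0.05 in edgeR's test, 4 of the 24 were higher in pXEN and 1 in XEN. Gata6 had 102, 91.7 and 120.0 CPM in pXEN2, pXEN4 and pXEN6 and 106, 74.2 and 77.1 CPM in XEN1, XEN2 and XEN5 (log2 fold change 0.29 with SE 0.22, adjusted p = 0.629). Its relative Gata4 averaged 209.6 ± 5.34 CPM in pXEN and 208 ± 62.0 in XEN (SD over 3 lines each, log2 fold change 0.01, SE 0.22). Sox17 averaged 337 ± 57.0 and 222 ± 62.5 CPM (log2 fold change 0.60 with SE 0.32, adjusted p = 0.421), and Sox7 56.5 ± 28.6 and 56.5 ± 18.4 CPM. The levels of all 4 factors overlap between the groups, and a difference as small as these standard errors was not detectable with 3 lines a group. The Runx1 call, at 0.884 ± 0.737 against 6.61 ± 0.948 CPM (log2 fold change -2.83 with SE 0.66, adjusted p = 0.0319), was lost without pXEN2, pXEN6, XEN1, XEN2 or XEN5 (adjusted p up to 0.121).

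Genes of the 2 later endoderm fates gave few calls, beside 0.918% of all genes higher in pXEN and 3.63% higher in XEN. In the parietal list, genes of the matrix-secreting layer, 1 of 22 was higher in pXEN (Krt19) and 1 higher in XEN (Cited2), with a median of 0.11. In the visceral list, genes of the absorptive layer, 1 of 19 was higher in pXEN (Mme) and 0 in XEN, with a median of -0.19 (-0.23 with bounds). Single lines varied more than groups here. Thbd, a parietal surface receptor of thrombin, had 32.9, 80.3 and 49.9 CPM in pXEN and 139, 6.12 and 12.2 in XEN1, XEN2 and XEN5, so that XEN1 alone was above all pXEN lines while the other XEN lines were below them. Cubn, a visceral uptake receptor, had 452, 179.9 and 71.2 CPM in pXEN and 333, 773 and 190.2 CPM in XEN (adjusted p = 0.674). Hnf4a, a visceral transcription factor, had 18.8, 41.3 and 32.1 and 37.8, 39.5 and 31.4 CPM, and Ttr, a thyroxine carrier, 5.26, 25.1 and 5.17 and 14.4, 24.7 and 4.76 CPM. Afp, the fetal carrier protein of visceral endoderm, was not tested, with 0, 2 and 2 counts in pXEN and 2, 1 and 4 in XEN. Tfpi, an inhibitor of coagulation abundant in parietal endoderm, had 562, 686 and 237 CPM in pXEN and 97.8, 136 and 223 in XEN, without overlap and just short of the threshold (log2 fold change 1.70 with SE 0.42, adjusted p = 0.0533). Cited2, a transcriptional co-regulator, had 30.9, 23.3 and 29.0 CPM in pXEN and 48.3, 114 and 104 in XEN (log2 fold change -1.68 with SE 0.32, adjusted p = 0.0115).

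Keratin 19 gave one of the largest differences in the pXEN direction. Krt19 (chromosome 11, 100140810 to 100148665, minus strand, GRCm38), a keratin of simple epithelia, had 69.8, 88.3 and 35.0 CPM in pXEN2, pXEN4 and pXEN6 and 1.56, 1.39 and 3.43 CPM in XEN1, XEN2 and XEN5. The pXEN level was 29.0-fold higher (log2 fold change 4.86 with SE 0.47, adjusted p = 2.45e-04), and the call held without any 1 line. The lowest pXEN line was well above the highest XEN line, and the ES lines were as low as XEN, at 2.06 and 3.90 CPM. Its partner keratins of the same epithelia did not follow. Krt8 had 493, 494 and 474 CPM in pXEN and 538, 910.3 and 559.9 in XEN (adjusted p = 0.409), and Krt18 75.4, 84.0 and 76.1 and 131, 291 and 111 CPM (adjusted p = 0.121), with every XEN line above every pXEN line for each. Of 31 epithelial and junction genes 1 was higher in pXEN (Krt19, 0.918% over all genes) and 2 in XEN (3.63%), with a median of 0. Those 2 were the desmosome gene Pkp2, at 21.7, 23.3 and 12.6 and 51.4, 67.3 and 67.4 CPM (log2 fold change -1.69 with SE 0.28, adjusted p = 0.00635), and N-cadherin, Cdh2, which had 0, 0 and 1 counts in pXEN and 15, 12 and 11 in XEN (adjusted p = 0.0101).

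A few genes of the pluripotent state remained readable in pXEN and nearly absent in XEN. Zfp42, which encodes REX1, had 17.8, 22.2 and 8.61 CPM in pXEN and 0, 0 and 0.264 in XEN (log2 fold change 6.85 with SE 0.67, adjusted p = 2.58e-04), and Pou5f1, which encodes OCT4, had 10.9, 39.0 and 18.7 and 0, 0.278 and 0.264 CPM (log2 fold change 6.58 with SE 0.72, adjusted p = 8.32e-04). From the summed counts, Pou5f1 was 116-fold (95% counting interval 31.9 to 967) higher in pXEN, an interval that covers counting error only. Zscan10, a zinc finger partner of the pluripotency factors, had 7.90, 6.83 and 11.2 CPM in pXEN and 0, 1 and 0 counts in XEN (log2 fold change 5.95 with SE 0.62, adjusted p = 3.22e-04), and was chosen after its values were seen. Dnmt3l, a cofactor of the de novo DNA methyltransferases, had 55.3, 168 and 22.7 and 0, 1.11 and 0.264 CPM (log2 fold change 7.25 with SE 1.11, adjusted p = 0.0117), a call lost without XEN1 (adjusted p = 0.0618). pXEN4 was the highest of the pXEN lines for Pou5f1, Zfp42 and Dnmt3l, and pXEN6 the lowest for Zfp42 and Dnmt3l. Of the 30 tested pluripotency genes 4 were called toward pXEN (0.918% over all genes) and 1 toward XEN (3.63%), and the 4 fell to 2 without XEN1. However, 13 of the 30 had at most 3 counts over each group and entered the test through the ES lines. The fit on the 6 libraries alone tested 14 and called 3 toward pXEN and 0 toward XEN. The weakest of the 4 was Dppa5a, which has near-identical copies, at 0.658, 2.56 and 0.861 CPM against 0 counts in XEN, and its call was lost without pXEN4, XEN1, XEN2 or XEN5 (adjusted p up to 0.0801). The 1 in XEN was Lin28b, a blocker of let-7 miRNAs, at 0 counts in pXEN and 1.56, 2.22 and 5.81 CPM in XEN (at least 10.7-fold higher, adjusted p = 0.0149). All 5 had a higher mean in the ES lines than in either group. Among members well above zero counts that did not pass, Tfcp2l1 had 81.6, 81.4 and 53.4 CPM in pXEN and 44.8, 27.0 and 47.0 in XEN (adjusted p = 0.0976). Klf4 had 45.1, 70.3 and 37.0 and 84.2, 90.6 and 94.1 CPM (adjusted p = 0.138), in the other direction.

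Some genes of cholesterol synthesis were higher in pXEN by moderate amounts. This pathway builds sterols from acetyl-CoA through mevalonate, farnesyl diphosphate and squalene, and its genes are under the common control of SREBP2. Of 34 tested genes 5 were higher in pXEN (0.918% over all genes) and 0 in XEN, with a median log2 fold change of 0.75 and 24 of 34 above zero, beside 49.2% over all genes tested. At an unadjusted p under 0.05, 17 of the 34 were higher in pXEN and 1 in XEN, and DESeq2 called 7 and 1. The 5 calls fell to 2 without XEN1 or XEN5 or when tested against a fold of 1.5, fell to 3 without pXEN4 or pXEN6, and rose to 9 without XEN2. Fdps, which makes farnesyl diphosphate, had 45.4, 67.8 and 41.9 CPM in pXEN and 21.8, 16.4 and 16.4 in XEN (log2 fold change 1.51 with SE 0.26, adjusted p = 0.00745). Fdft1, the squalene synthase, had 93.1, 136 and 79.5 and 29.2, 43.1 and 32.8 CPM (log2 fold change 1.55 with SE 0.27, adjusted p = 0.00758). These 2 calls held without any 1 of the 6 lines. The later steps were called less firmly. Sqle, the squalene epoxidase, had 132, 167 and 95.6 and 42.1, 69.5 and 32.0 CPM (log2 fold change 1.46 with SE 0.32, adjusted p = 0.0231), and its call was lost without pXEN2, pXEN4, XEN1 or XEN5 (adjusted p up to 0.101). Dhcr7, a reductase at the end of the pathway, averaged 42.3 ± 5.34 against 18.1 ± 4.88 CPM (adjusted p = 0.0215), and its call was lost without pXEN6, XEN1 or XEN5 (adjusted p up to 0.0879). More members had all pXEN lines above all XEN lines without passing. The cyclase Lss had 17.8, 30.2 and 24.1 and 6.23, 13.6 and 9.25 CPM (adjusted p = 0.0602), and Cyp51, a demethylase, 69.8, 82.9 and 68.0 and 24.2, 52.0 and 18.5 (adjusted p = 0.0743). The cholesterol exporter Abca1 went the other way, at 15.8, 54.1 and 59.4 CPM in pXEN and 249, 90.9 and 73.4 in XEN (adjusted p = 0.214). XEN2 was the highest XEN line for Sqle, Cyp51 and Fdft1.

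The neighbouring fatty acid genes split, with 2 of 36 higher in pXEN (0.918% over all genes), 2 higher in XEN (3.63%) and a median of 0.02. Elovl6, an elongase of long-chain fatty acids, had 109.6, 184 and 54.2 CPM in pXEN and 21.4, 24.2 and 23.5 in XEN (log2 fold change 2.33 with SE 0.38, adjusted p = 0.00635). Acly, which makes cytosolic acetyl-CoA from citrate, had 362, 579 and 372 and 212, 213 and 228 CPM (log2 fold change 1.01 with SE 0.21, adjusted p = 0.0206), a call lost without pXEN4, XEN1, XEN2 or XEN5 (adjusted p up to 0.0667). Slc13a5, which carries citrate into cells, had 78.6, 63.8 and 10.9 CPM in pXEN and 0, 1 and 0 counts in XEN1, XEN2 and XEN5 (log2 fold change 8.51 with SE 1.34, adjusted p = 0.0102). pXEN6 was well below the other pXEN lines, and the call was lost without XEN1, XEN2 or XEN5 (adjusted p up to 0.0945). Fasn, the fatty acid synthase, averaged 247 ± 6.17 CPM in pXEN and 179 ± 33.8 in XEN and did not pass (adjusted p = 0.391). In XEN the higher genes were Dgat2, a triglyceride synthase, at 2.15 ± 1.34 and 9.98 ± 4.98 CPM, and Lpin2 at 9.55 ± 1.42 and 21.5 ± 4.07. The Dgat2 call was lost without pXEN2, pXEN6, XEN1 or XEN2 (adjusted p up to 0.179) and the Lpin2 call in each of the 6 fits that left out 1 line (up to 0.140).

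Sequence upstream of genes was read from the RefSeq promoter table (GRCm38.p6), as the 250 bases before the annotated start. The sterol regulatory element TCACNCCAC, searched on both strands, lay there in 1 of 26 cholesterol genes with an entry, Hmgcs1, and in 1.26% of 8339 tested genes with an entry (1.05% of all 32851 promoters). Of the 5 called genes 1 had an entry. Hmgcs1, an early enzyme of the pathway, is shown because it carries the match, in capitals (GRCm38.p6, chr13:119690101-119690350, plus strand).
Hmgcs1: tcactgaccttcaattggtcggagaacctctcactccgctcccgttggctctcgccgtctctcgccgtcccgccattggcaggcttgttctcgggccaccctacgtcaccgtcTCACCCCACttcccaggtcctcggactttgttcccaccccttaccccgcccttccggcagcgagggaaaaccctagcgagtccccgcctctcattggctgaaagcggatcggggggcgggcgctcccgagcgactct

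Hmgcs1 itself had 16.8, 26.2 and 11.8 CPM in pXEN and 8.18, 11.7 and 4.76 in XEN, with the groups just apart, and did not pass (log2 fold change 1.15 with SE 0.39, adjusted p = 0.156).

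Socs3, a feedback inhibitor that STAT3 induces after LIF and related cytokines, was higher in every pXEN line. It had 61.9, 78.6 and 41.9 CPM in pXEN2, pXEN4 and pXEN6 and 11.3, 8.06 and 6.34 CPM in XEN1, XEN2 and XEN5, 7.16-fold higher in pXEN (log2 fold change 2.84 with SE 0.33, adjusted p = 8.08e-04), and 9.05 and 13.6 CPM in the ES lines, which were given LIF. The rest of the LIF and STAT3 list did not move with it: 1 of 19 genes was higher in pXEN, 1 in XEN, and the median was 0.01. The 1 called in XEN was Osmr, the oncostatin M receptor, at 3.29, 1.42 and 1.43 and 10.1, 7.78 and 9.25 CPM (adjusted p = 0.0415), lost without pXEN4, pXEN6, XEN1, XEN2 or XEN5 (adjusted p up to 0.132) and not called by DESeq2. Junb, Cish, Socs2 and Pim1, which STAT factors can also induce, had every XEN line above every pXEN line without passing, at 50.2 ± 11.6 and 87.3 ± 7.31 CPM for Junb (adjusted p = 0.0949). The 250 bases before Socs3 (GRCm38.p6, chr11:117969367-117969616, minus strand; the gene's span in GENCODE starts further upstream) hold 1 match to TTCNNNGAA, the short palindrome of STAT sites searched on both strands, shown in capitals. That match lay in 1 of 16 listed genes with an entry and in 7.03% of tested genes with one.
Socs3: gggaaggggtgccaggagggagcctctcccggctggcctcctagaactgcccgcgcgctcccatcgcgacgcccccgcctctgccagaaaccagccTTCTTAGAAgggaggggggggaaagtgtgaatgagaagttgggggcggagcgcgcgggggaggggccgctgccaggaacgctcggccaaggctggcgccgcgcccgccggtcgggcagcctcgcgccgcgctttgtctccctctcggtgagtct

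Other genes higher in pXEN came from many functions. Cyp26a1, which degrades retinoic acid, had 12.2, 21.4 and 42.2 CPM in pXEN and 0, 1.95 and 0.528 in XEN (log2 fold change 4.77 with SE 0.78, adjusted p = 0.00688). It was the only called gene of 10 tested retinoid genes (0.918% of all genes were higher in pXEN), which had a median of -0.52. Mme, a membrane metalloprotease also called neprilysin, had 195, 318 and 238 and 69.8, 84.8 and 97.8 CPM (log2 fold change 1.57 with SE 0.27, adjusted p = 0.00702). Clu, a secreted chaperone, had 434, 496 and 268 and 42.5, 13.1 and 70.5 CPM (log2 fold change 3.25 with SE 0.53, adjusted p = 0.0101), a call lost without XEN1 (adjusted p = 0.0665). Fgf10, a ligand of the FGF family, had 85.6, 103 and 84.1 and 24.5, 38.1 and 18.8 CPM (log2 fold change 1.74 with SE 0.28, adjusted p = 0.00483). Gusb, the lysosomal beta-glucuronidase, had 49.0, 45.6 and 41.3 and 14.8, 5.28 and 5.81 CPM (log2 fold change 2.43 with SE 0.38, adjusted p = 0.00468), while 36 of the 38 tested lysosome and endocytosis genes were not called. Over all genes tested, 4.55% were called in either direction. The groups were well apart for Mme, Fgf10 and Gusb, and those calls held without any 1 line.

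The largest differences by fold in this direction also took in genes of other tissues. Ttbk1, a tau kinase of neurons, had 14.1, 16.2 and 19.8 CPM in pXEN and 0, 1.11 and 1.59 in XEN (log2 fold change 4.05 with SE 0.59, adjusted p = 0.00284). Hecw2, a ubiquitin ligase, had 15.1, 19.6 and 26.1 and 0.779, 1.39 and 1.85 CPM (log2 fold change 3.84 with SE 0.48, adjusted p = 0.00110), and Tex13, a testis-expressed gene, 31.9, 30.7 and 35.0 and 0.390, 1.39 and 1.32 CPM (log2 fold change 4.85 with SE 0.70, adjusted p = 0.00363). The pXEN lines were close to each other for these 3 genes, and the calls held without any 1 line. Tnni3, the cardiac troponin I, was less even, at 4.94, 4.84 and 31.3 and 0.390, 0.834 and 0 CPM (adjusted p = 0.0229), with pXEN6 far above the others. Rinl had 27.6, 3.70 and 28.1 and 0, 0 and 0.793 CPM (adjusted p = 0.0165), with pXEN4 well below. The Tnni3 and Rinl calls were each lost without XEN1, XEN2 or XEN5 (adjusted p up to 0.0993 and 0.0763). Rpl39l, a ribosomal protein paralog whose reads can be shared with Rpl39 copies and whose level is uncertain, had 41.8, 7.12 and 16.1 and 0.779, 0.278 and 0.264 CPM (adjusted p = 0.00610).

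**Figure D3:**
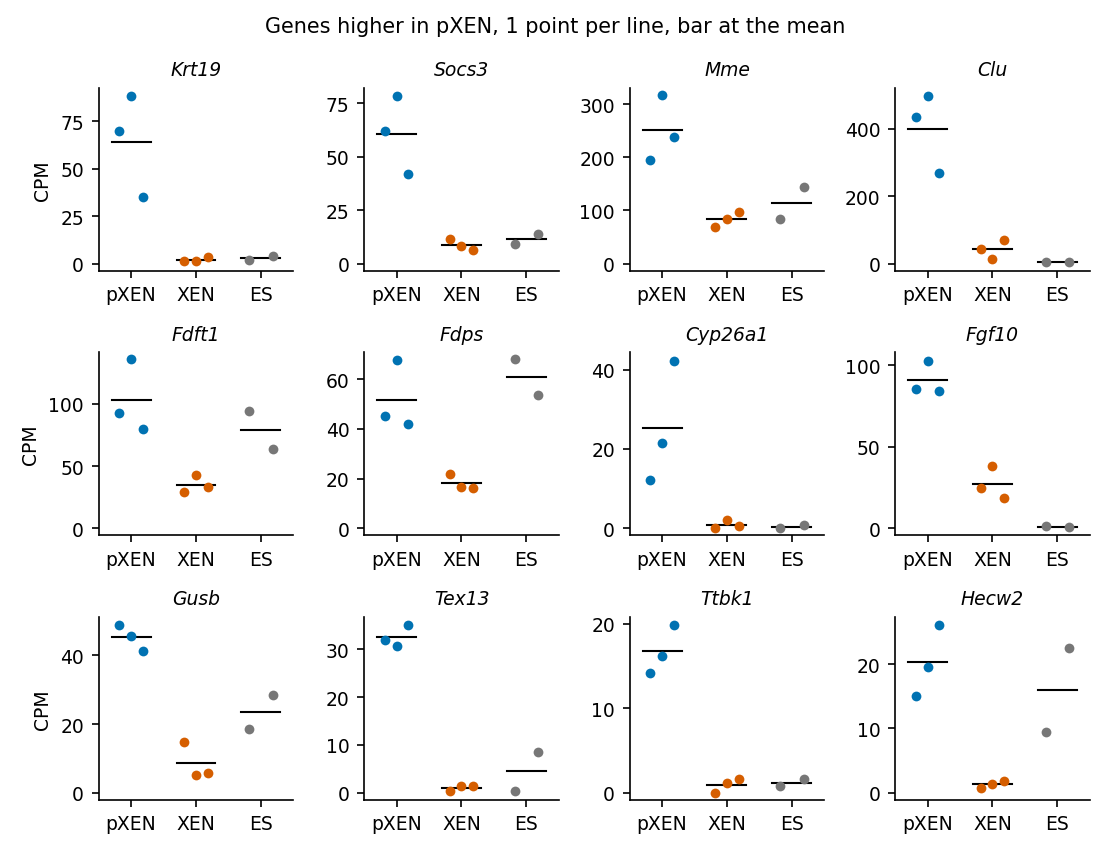
CPM of 12 genes called higher in pXEN, on linear axes of their own, with 1 point per line and a bar at the group mean for pXEN, XEN and ES lines. Krt19, Socs3, Mme and Fgf10 have all pXEN lines above all XEN lines and above the ES lines, while Fdft1, Fdps and Hecw2 have ES lines in the range of pXEN or near it.

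Among abundant genes with at least a 2-fold difference, pXEN had more of H1f0, the linker histone of slowly dividing cells, at 506, 900.3 and 849 CPM against 236, 217 and 350.3 (log2 fold change 1.49 with SE 0.29, adjusted p = 0.0121). That call was lost without XEN1 (adjusted p = 0.0643). Ggta1, which caps glycans with alpha-galactose, had 289, 367 and 270.1 and 111, 150.1 and 193 CPM (adjusted p = 0.0459), lost without pXEN2, pXEN4, pXEN6, XEN1 or XEN2 (up to 0.152). Sfmbt2, an imprinted Polycomb-type gene active in extraembryonic lineages, had 551, 374 and 508 and 81.8, 223 and 139 CPM (adjusted p = 0.0476), lost without pXEN2, pXEN4, pXEN6, XEN1 or XEN5 (up to 0.154). Of the glycosyltransferase and peptidase list, 3 of 30 were higher in pXEN (0.918% over all genes) and 1 in XEN (3.63%), with a median of -0.02 (-0.03 with bounds). Besides Mme these were the fucosyltransferases Fut8, at 129.9 ± 20.5 and 64.4 ± 6.26 CPM (lost without pXEN2, pXEN6, XEN1 or XEN2, adjusted p up to 0.0915), and Fut4, at 6.58, 18.5 and 2.30 CPM against 0 counts (at least 30.3-fold higher, lost without XEN1 or XEN5, up to 0.0533). Hs6st2, a heparan sulfate sulfotransferase, averaged 10.0 ± 5.50 in pXEN and 37.0 ± 20.6 in XEN (adjusted p = 0.0482, lost without pXEN4, pXEN6, XEN1 or XEN5, up to 0.168).

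Many immediate early genes were higher in XEN. These genes are switched on within minutes by growth factors, serum or stress, and many encode AP-1 subunits and their feedback regulators. Of 21 tested members 11 were higher in XEN (3.63% over all genes) and 0 in pXEN, the median was -1.75 beside 0 over all genes, and none of the 21 was above zero. At an unadjusted p under 0.05 the count was 18 of 21, and DESeq2 called 13. Jun, the AP-1 subunit (chromosome 4, 95049034 to 95052222, minus strand, GRCm38), had 40.1, 32.5 and 40.2 CPM in pXEN and 263, 354 and 224 in XEN (log2 fold change -2.90 with SE 0.36, adjusted p = 0.00122). Atf3, a stress-induced partner of JUN, had 11.2, 1.99 and 8.04 and 180.0, 137 and 95.6 CPM (log2 fold change -4.29 with SE 0.50, adjusted p = 0.00133). Jund had 45.1, 45.6 and 38.7 and 162, 126 and 146 CPM (log2 fold change -1.74 with SE 0.26, adjusted p = 0.00290), and Fosb, whose level was low in all lines, 1.65, 3.99 and 2.01 and 15.6, 27.2 and 20.1 CPM (log2 fold change -3.01 with SE 0.48, adjusted p = 0.00501). Dusp1, a phosphatase that shuts MAP kinases off, had 10.2, 7.12 and 11.5 and 65.1, 61.4 and 76.9 CPM (log2 fold change -2.82 with SE 0.25, adjusted p = 1.42e-04). In each case the lowest XEN line stood well above the highest pXEN line.

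The same held for Klf6, Ier2 and Nr4a1, transcription factors of the same early wave. Klf6 had 89.5, 69.5 and 108 CPM in pXEN and 277, 439 and 268 in XEN (log2 fold change -1.88 with SE 0.30, adjusted p = 0.00555), with XEN2 the highest. Ier2 averaged 23.1 ± 9.54 and 74.9 ± 9.46 CPM (adjusted p = 0.00702) and Nr4a1 9.21 ± 4.64 and 48.3 ± 23.6 (adjusted p = 0.00948). These 8 calls held without any 1 of the 6 lines. Those of Maff (lost without pXEN6, adjusted p = 0.0679), Fosl2 (without pXEN2 or XEN1, up to 0.0681) and Klf10 (without pXEN2 or XEN2, up to 0.0752) did not. Fos had 0.329, 3.13 and 0.287 CPM in pXEN and 7.01, 11.1 and 7.4 in XEN (adjusted p = 0.0795) and Egr1 0, 6.55 and 0 and 16.0, 22 and 39.4 (adjusted p = 0.143). They showed no overlap but did not pass, with pXEN4 the only pXEN line that held any count of Egr1. The fibroblast sums that separate the same lines were 564 to 846 CPM in XEN and 25.7 to 35.9 in pXEN, and their part in these differences was not tested.

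Some targets and brakes of FGF and ERK signalling were higher in XEN. Of 23 tested genes 6 were called higher in XEN (3.63% over all genes) and 0 in pXEN, 5 of 23 were above zero, with a median of -1.15 (-0.93 with bounds). The 6 include Dusp1, already counted with the immediate early genes, and the cyclin gene Ccnd1. Dusp6, the phosphatase that dephosphorylates ERK, had 0.658, 0 and 0.287 CPM in pXEN and 12.5, 13.9 and 17.4 in XEN (adjusted p = 0.00256), 3 counts over the pXEN lines against 148. Dusp14 had 0.329, 0 and 0.574 and 13.2, 7.78 and 6.34 CPM (adjusted p = 0.00205), and Spred1, an inhibitor of RAF activation, 1.32, 1.99 and 0.287 and 16.4, 27.5 and 19.8 CPM (log2 fold change -4.11 with SE 0.53, adjusted p = 0.00137). The pXEN lines were at or near zero for all 3 and no XEN line was below 6 CPM. Etv4, an ETS factor induced by FGF, was a weaker call at 3.29, 4.27 and 2.30 and 7.4, 8.34 and 11.1 CPM (adjusted p = 0.0421), lost without pXEN2, pXEN6, XEN1, XEN2 or XEN5 (adjusted p up to 0.149). The ES lines, which had low fibroblast sums, held Dusp6 at 37.8 and 9.35 CPM and Spred1 at 35.0 and 16.4 CPM. The part of feeder RNA in the XEN levels was not tested.

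D-type cyclins, which link growth signals to the cell cycle, also differed. Ccnd1 is itself 1 of the 6 FGF and ERK genes called higher in XEN. Ccnd1 (chromosome 7, 144929931 to 144939925, minus strand, GRCm38) had 0, 0 and 1 counts in pXEN2, pXEN4 and pXEN6 and 48, 34 and 55 in XEN1, XEN2 and XEN5, or 18.7, 9.45 and 14.5 CPM in XEN (log2 fold change -6.67 with SE 0.64, adjusted p = 2.13e-04), and 47.3 and 57.7 CPM in the ES lines. Ccnd2 had 14.8, 2.85 and 9.18 and 79.9, 45.3 and 57.3 CPM (log2 fold change -2.77 with SE 0.46, adjusted p = 0.00733), and the ES lines had 0.822 and 0.779 CPM. Cdkn1a, a cyclin-dependent kinase inhibitor induced by p53, had 70.7, 65.8 and 81.2 and 256, 111 and 235 CPM (adjusted p = 0.0167), with the call lost without pXEN2, XEN1 or XEN5 (adjusted p up to 0.0723). The rest of the cell cycle list leaned slightly the other way. Of its 46 genes 0 were called higher in pXEN (0.918% over all genes) and 3 in XEN (3.63%), 36 were above zero, and the median was 0.17. Plk1, a mitotic kinase, had 113, 132 and 129 CPM in pXEN and 77.2, 80.1 and 42.0 in XEN (adjusted p = 0.0682), and Ccna2, cyclin A2, 499.8, 434 and 472 and 329.7, 382 and 398 CPM (adjusted p = 0.394), both without overlap and without passing. Of 22 p53 target genes 4 were higher in XEN (3.63% over all genes), with a median of -0.65. Plk2 averaged 13.8 ± 3.53 CPM in pXEN and 82.8 ± 27.6 in XEN (log2 fold change -2.58 with SE 0.33, adjusted p = 0.00121) and Bbc3, a trigger of apoptosis, 4.89 ± 1.45 and 21.2 ± 4.45 (log2 fold change -2.10 with SE 0.35, adjusted p = 0.00589), while the Perp call was lost without pXEN2, pXEN6, XEN1 or XEN2 (adjusted p up to 0.0713).

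FGF ligands and growth factor receptors gave 1 gene higher in pXEN (Fgf10) and 4 higher in XEN (2 without pXEN4 or XEN1) of 20 tested, with a median of -0.90 (-1.01 with bounds). The shares over all genes were 0.918% and 3.63%. Fgf7, a ligand made by mesenchyme, had 0, 1 and 0 counts in pXEN and 11, 19 and 13 in XEN (adjusted p = 0.0108), and Pdgfc 0, 0 and 1 and 5, 14 and 16 (adjusted p = 0.00733). The calls of the receptors Egfr and Fgfr1 rested on few counts and were lost without pXEN2, pXEN4, pXEN6 or XEN1 (adjusted p up to 0.0994) and without pXEN4, pXEN6, XEN1, XEN2 or XEN5 (up to 0.103). Pdgfra, the receptor that primitive endoderm itself carries, averaged 65.0 ± 8.62 and 67.9 ± 15.0 CPM (adjusted p = 0.967).

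Among actin cytoskeleton genes of the kind that serum response factor (SRF) controls, some were higher in XEN. Of 29 tested 9 were higher in XEN (3.63% over all genes) and 0 in pXEN, with a median of -0.99. Acta2, smooth muscle actin (chromosome 19, 34241090 to 34255590, minus strand, GRCm38), had 1.32, 0.569 and 2.87 CPM in pXEN and 191, 177 and 184 in XEN, 113-fold higher in XEN (log2 fold change -6.82 with SE 0.41, adjusted p = 1.37e-05). Tagln, an actin-binding protein, had 9.87, 9.40 and 8.32 and 142, 181 and 158 CPM (log2 fold change -4.12 with SE 0.26, adjusted p = 1.37e-05). Cnn1, a calponin, averaged 1.65 ± 1.55 and 25 ± 3.36 CPM (adjusted p = 0.00137), Myl9, a myosin light chain, 0.682 ± 0.421 and 14.4 ± 3.13 (adjusted p = 0.00162), and Actg2 had 0 counts in pXEN and 10.5, 11.4 and 9.25 CPM in XEN (at least 34.8-fold higher). The XEN lines were close to each other for Acta2, Tagln, Cnn1 and Actg2. Broadly expressed members differed less. Tpm1, a tropomyosin, had 98.7, 87.1 and 120.0 and 210.0, 191 and 235 CPM (log2 fold change -1.06 with SE 0.21, adjusted p = 0.0152, lost without pXEN2 or XEN5, adjusted p up to 0.0700), and Vcl, vinculin, 173, 93.7 and 142 and 304, 221 and 299.9 CPM (log2 fold change -1.01 with SE 0.25, adjusted p = 0.0416, lost without pXEN4, pXEN6, XEN1 or XEN5, up to 0.132). Of 28 Hippo and YAP genes 2 were called, Axl and Tgfb2, both higher in XEN (3.63% over all genes), and the median was -0.16. The fibroblast sums, 564 to 846 CPM in XEN and 25.7 to 35.9 in pXEN, separate the same lines, and their part in these levels was not tested.

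The CArG box, the SRF site, searched on both strands, lay within 250 bases upstream in 6 of 24 genes of this list with an entry (25%) and in 1.36% of tested genes with one (1.47% of all promoters). It lay in 1 of 17 immediate early genes with an entry. The called genes with a match were Vcl and Myl9, 1 with a small and 1 with a large difference, and the others Cnn2, Srf, Fhl1 and Fhl2. The upstream bases of Vcl (GRCm38.p6, chr14:20929148-20929397, plus strand) and Myl9 (GRCm38.p6, chr2:156775214-156775463, plus strand) are shown with the box in capitals, which ends 217 and 151 bases before the start.
Vcl: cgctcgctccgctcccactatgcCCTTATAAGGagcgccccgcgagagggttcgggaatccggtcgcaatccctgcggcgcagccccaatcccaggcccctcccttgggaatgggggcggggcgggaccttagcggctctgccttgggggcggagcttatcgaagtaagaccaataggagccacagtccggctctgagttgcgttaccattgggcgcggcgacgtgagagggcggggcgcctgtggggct
Myl9: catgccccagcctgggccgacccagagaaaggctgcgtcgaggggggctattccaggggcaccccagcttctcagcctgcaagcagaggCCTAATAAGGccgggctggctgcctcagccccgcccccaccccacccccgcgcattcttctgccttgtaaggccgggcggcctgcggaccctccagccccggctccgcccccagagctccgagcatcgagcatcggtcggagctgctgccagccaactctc

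**Figure D4:**
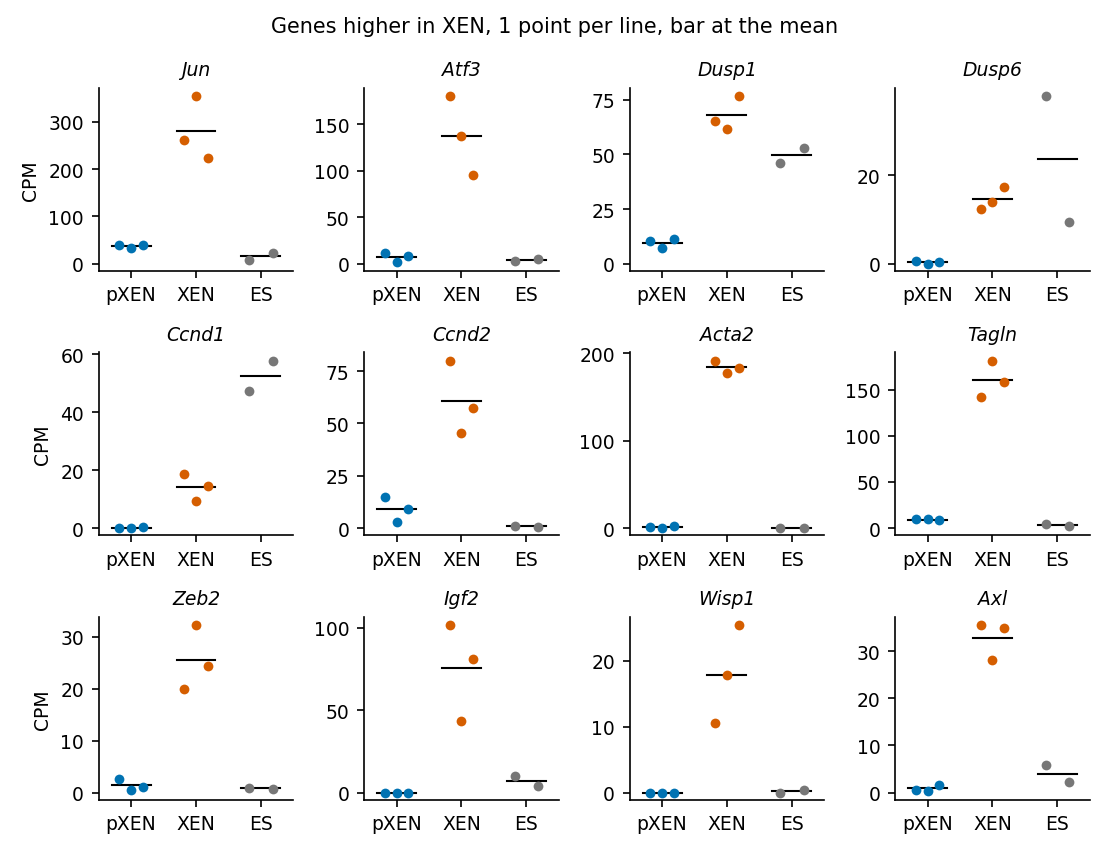
CPM of 12 genes called higher in XEN, on linear axes of their own, with 1 point per line and a bar at the group mean for pXEN, XEN and ES lines. Jun, Atf3, Acta2, Tagln, Wisp1 and Axl are low in pXEN and ES lines alike, while Dusp1, Dusp6 and Ccnd1 have ES lines nearer to XEN than to pXEN or above it.

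Several secreted signals of the TGF-beta and BMP family, and some proteins that bind them, were higher in XEN. Of 33 tested genes 11 were higher in XEN (3.63% over all genes), 1 in pXEN (0.918%) and 21 were not called, with a median of -0.57. The 11 include a gene that is also on the matrix list. Inhba, the activin A subunit, had 0 counts in pXEN and 9.74, 17.2 and 18.0 CPM in XEN (at least 50.1-fold higher, adjusted p = 0.00137). Tgfb3 had 0.329, 0.854 and 2.01 and 10.1, 11.4 and 11.6 CPM (adjusted p = 0.00906), while Tgfb2, Bmp4 and the BMP antagonist Grem1 had 0 counts in pXEN and averaged 4.04 ± 1.08, 5.31 ± 2.35 and 4.78 ± 0.964 CPM in XEN. The latent TGF-beta binding proteins Ltbp1 and Ltbp2 had 11.3, 7.78 and 8.45 and 11.3, 10.6 and 8.72 CPM in XEN against 2 and 0 counts in pXEN. Smad7, the intracellular brake of the pathway, had 17.4, 15.9 and 20.9 and 73.3, 46.7 and 34.9 CPM (log2 fold change -1.50 with SE 0.29, adjusted p = 0.0130), a call lost without pXEN2 (adjusted p = 0.0597). The exception was Id4, a BMP-induced inhibitor of helix-loop-helix factors, at 14.5, 15.7 and 25 CPM in pXEN and 5.85, 5.28 and 1.32 in XEN (log2 fold change 2.17 with SE 0.51, adjusted p = 0.0344). Its call was lost without pXEN2, pXEN6, XEN1, XEN2 or XEN5 (adjusted p up to 0.125).

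Wnt genes had 7 of 25 higher in XEN (3.63% over all genes) and 0 in pXEN, with a median of -1.80 (-1.60 with bounds). The 7 calls fell to 3 without pXEN2 and to 4 without pXEN6 or XEN2 or when tested against a fold of 1.5. Wisp1, a matricellular Wnt target, had 0 counts in pXEN and 10.5, 17.8 and 25.4 CPM in XEN1, XEN2 and XEN5 (at least 59.9-fold higher, adjusted p = 0.00104). Its relative Wisp2 had 4.29, 5.28 and 6.34 CPM against 0 counts. Frzb, a secreted Wnt antagonist, had 2.30, 3.13 and 0.574 and 17.5, 57.0 and 20.3 CPM (log2 fold change -3.96 with SE 0.64, adjusted p = 0.00649), with XEN2 the highest. XEN2 was also far above the others for Sp8, at 3.12, 46.4 and 6.34 CPM, and Wnt11, at 8.18, 28.4 and 3.43 CPM, whose calls were lost without pXEN2, pXEN4 or pXEN6 (adjusted p up to 0.244) and without pXEN2, pXEN4, pXEN6, XEN1 or XEN2 (up to 0.114). The receptor calls were Fzd5, at 1.69 ± 0.0409 and 6.53 ± 1.49 CPM (lost without pXEN2, adjusted p = 0.0566), and Fzd2, at 2.23 ± 1.11 and 10.9 ± 4.90 (lost without pXEN2, pXEN6, XEN1 or XEN2, up to 0.130).

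The insulin-like growth factors divided between the groups. Igf2 (chromosome 7, 142650766 to 142666816, minus strand, GRCm38), a paternally expressed growth factor, had 0 counts in all 3 pXEN lines and 101, 43.7 and 80.8 CPM in XEN1, XEN2 and XEN5, at least 252-fold higher (adjusted p = 2.48e-04), beside 10.3 and 4.29 CPM in the ES lines. Igf1 went the other way, at 20.4, 55 and 29.3 CPM in pXEN and 7.4, 3.89 and 10.0 in XEN (log2 fold change 2.29 with SE 0.46, adjusted p = 0.0200), a call lost without XEN1 or XEN2 (adjusted p up to 0.0797). The binding protein Igfbp2 had 0, 1 and 0 counts in pXEN and 44.4, 49.2 and 18.2 CPM in XEN (adjusted p = 2.58e-04), and 211 and 376 CPM in ES. Igfbp7 had 0 counts and 17.5, 13.1 and 14.0 CPM (at least 49.7-fold higher), and Pappa, a protease that cleaves IGF-binding proteins, 0 counts and 10.1, 13.9 and 18.0 CPM (at least 46.8-fold higher). Igf2bp3, an RNA-binding protein, averaged 51.8 ± 7.34 and 123 ± 37.2 CPM (adjusted p = 0.0229, lost without pXEN2, pXEN4, pXEN6 or XEN2, up to 0.0811). Over the 31 tested genes of the IGF axis and imprinted genes, 2 were called toward pXEN (0.918% over all genes) and 5 toward XEN (3.63%), with a median of -1.27 (-1.13 with bounds). The 5 include a gene that is also on the fibroblast and matrix lists. The calls fell to 3 in XEN without XEN2 and to 0 in pXEN without XEN1.

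**Figure D5:**
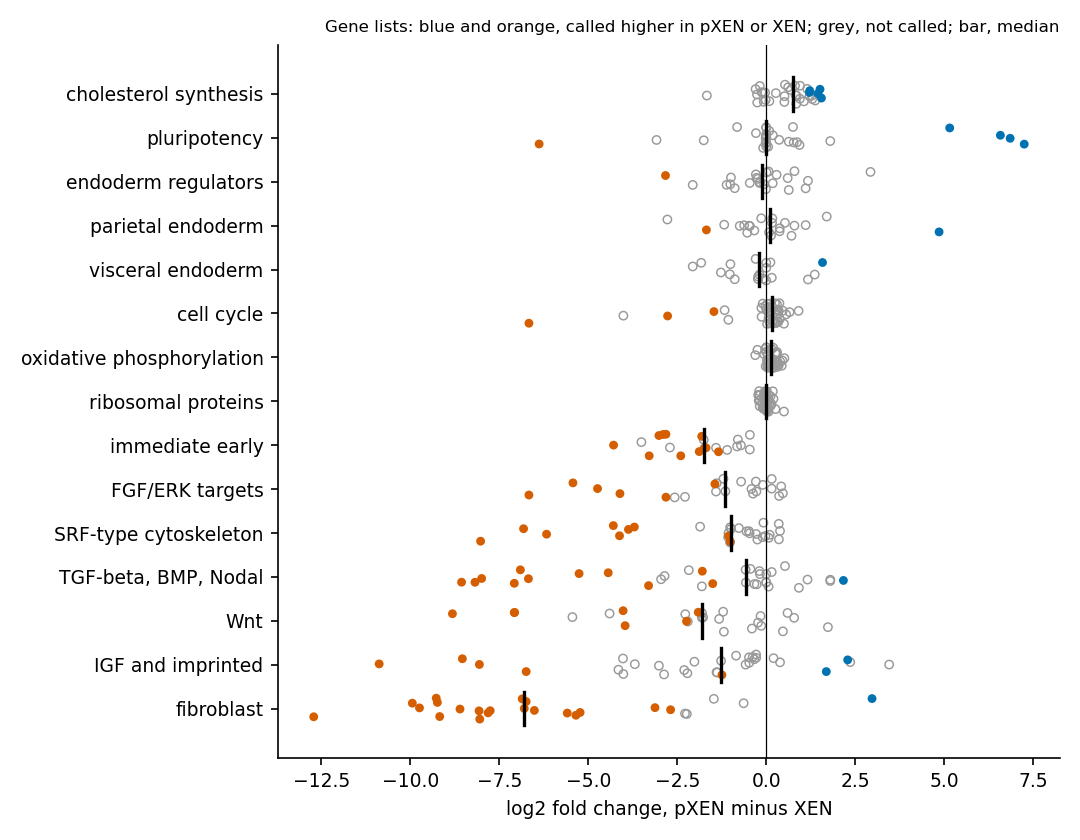
Each point is a tested gene of the list named at left, placed by its log2 fold change (positive when higher in pXEN), with the list's median as a bar. Filled points are called genes, and the medians run from 0.75 for cholesterol synthesis to -1.80 for Wnt and -6.80 for the fibroblast list, with ribosomal proteins at -0.01.

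The genes with the largest differences toward XEN were mostly ones that pXEN lacked. Cav1, the main protein of caveolae, had 0, 2 and 0 counts in pXEN and 77.2, 84.0 and 114 CPM in XEN (log2 fold change -8.59 with SE 0.56, adjusted p = 2.66e-05), and Cav2 0 counts and 5.46, 12.2 and 13.2 CPM (at least 34.5-fold higher). Prss23, a secreted serine protease, had 1, 0 and 0 counts and 54.2, 77.8 and 76.1 CPM (log2 fold change -8.96 with SE 0.54, adjusted p = 1.37e-05). Penk, the enkephalin precursor, Svep1, a cell adhesion protein, and Tnfrsf11b, the decoy receptor osteoprotegerin, had 0 counts in pXEN and averaged 19.8 ± 7.93, 19.8 ± 7.63 and 10.6 ± 4.76 CPM in XEN. They were at least 66.1-fold, at least 66.2-fold and at least 35.6-fold higher (adjusted p = 4.90e-04, adjusted p = 0.00110 and adjusted p = 0.00459). The ES lines had at most 0.595 ± 0.260 CPM of these last 3 genes (Penk, SD over 2 lines). The fibroblast sums were also higher in every XEN line, at 564 to 846 CPM, and their part in these differences was not tested.

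Some mesenchymal and cytokine genes were higher in XEN too. Of 17 genes of mesenchymal transition 6 were higher in XEN (3.63% over all genes), and the median was -2.06. Of these 6, 4 (Prrx1, Prrx2, S100a4 and Itga11) are fibroblast or mesenchyme genes. The Itga11 call was lost without pXEN2 (adjusted p = 0.0556). Axl, a receptor tyrosine kinase, had 0.658, 0.285 and 1.72 CPM in pXEN and 35.5, 28.1 and 34.9 in XEN (log2 fold change -5.13 with SE 0.51, adjusted p = 2.48e-04), and Zeb2, a repressor of E-cadherin, 2.63, 0.569 and 1.15 and 19.9, 32.3 and 24.3 CPM (log2 fold change -4.14 with SE 0.47, adjusted p = 6.82e-04). Of 15 cytokine and prostaglandin genes 4 were higher in XEN (2 without XEN1, and 3.63% over all genes), with a median of -0.72. Il1rl1 among them is also on the fibroblast list. Spp1, osteopontin, had 1, 2 and 0 counts in pXEN, 47.2, 24.5 and 47.8 CPM in XEN (adjusted p = 3.49e-05) and 359 and 317 CPM in ES. The chemokine Cxcl12 had 2.30, 1.71 and 1.43 and 17.5, 30.3 and 19.6 CPM (log2 fold change -3.61 with SE 0.44, adjusted p = 0.00101). The calls of Il1rl1, at 12.9, 5.28 and 28.3 CPM in XEN, and Ptgs2, at 10.1, 11.7 and 16.1 CPM, were lost without XEN1 (adjusted p = 0.0565) and in each of the 6 fits that left out 1 line (up to 0.137). Ifitm3, an interferon-induced membrane protein, was the only call of 21 antigen presentation and interferon genes, at 0, 0 and 1 counts in pXEN and 6.23, 3.06 and 5.81 CPM in XEN (adjusted p = 0.00557).

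Of 15 blood and endothelium genes, 2 were called higher in pXEN (0.918% over all genes) and 2 in XEN (3.63%), with a median of 0 (0.30 with bounds). With sex as a covariate these counts fell to 0 and 1. The fit on the 6 libraries alone tested 7 and called 0 toward pXEN and 1 toward XEN. Esam, an endothelial junction protein, had 42.1, 78.6 and 36.2 CPM in pXEN and 4.29, 2.22 and 15.3 in XEN (adjusted p = 0.0331, lost without pXEN2, pXEN4 or XEN1, adjusted p up to 0.125). Fcer1g, a signalling chain of blood cell receptors, had 3.94 ± 0.857 and 0.130 ± 0.225 CPM (lost without XEN2 or XEN5, up to 0.0713). Flt1, a VEGF receptor, was higher in XEN at 23.8, 5.56 and 2.38 CPM against 1 count in pXEN (lost without pXEN2, pXEN4 or pXEN6, up to 0.138). Cdh5, the endothelial cadherin, had 83.9, 372 and 208 CPM in pXEN and 86.1, 11.1 and 80.6 in XEN, which overlap (adjusted p = 0.322). The defining endothelial markers Pecam1 and Emcn were at 0 counts in all pXEN lines, with 3 counts of Pecam1 in XEN5 alone among XEN. Of 5 tested trophoblast genes Tfap2a was called higher in pXEN (0.918% over all genes), at 3.02 ± 1.40 CPM in pXEN and 0.130 ± 0.225 in XEN (lost without XEN2 or XEN5, up to 0.113), while the defining factors Cdx2 and Elf5 had 0 or 1 count per line.

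Metabolic and stress lists gave few calls, beside 0.918% of all genes higher in pXEN and 3.63% higher in XEN. Of 39 glycolysis and hypoxia genes, Bnip3l, a mitophagy receptor, had 51.7, 58.7 and 39.0 CPM in pXEN and 143, 116 and 124 in XEN (log2 fold change -1.36 with SE 0.24, adjusted p = 0.00751), and Egln3, an oxygen-sensing hydroxylase, 11.2, 10.5 and 11.2 and 39.0, 45.6 and 30.6 CPM (log2 fold change -1.80 with SE 0.33, adjusted p = 0.00996). Pfkfb4 was higher in pXEN at 7.38 ± 1.84 and 1.26 ± 0.610 CPM (adjusted p = 0.0206, lost without pXEN6, XEN1 or XEN5, up to 0.0805), and the median was -0.57 with 7 of 39 above zero. Of 31 endoplasmic reticulum genes Herpud1, a component of protein degradation there, had 54.6, 49.5 and 44.2 and 111, 129 and 162 CPM (log2 fold change -1.44 with SE 0.23, adjusted p = 0.00499). The collagen regulator Creb3l1 was called too (lost without pXEN2 or pXEN6, up to 0.132), and the median was -0.02. Of 30 amino acid response genes only Wars, the tryptophan tRNA ligase, was called, at 478, 443 and 425 CPM in pXEN and 249.8, 188 and 302 in XEN (adjusted p = 0.0358, lost without pXEN2, pXEN4, pXEN6, XEN1 or XEN2, up to 0.134). Of 32 antioxidant and xenobiotic genes 3 were higher in XEN (Gpx8, Cyp1b1 and Ahr), with a median of -0.11. These calls were lost without pXEN2, pXEN6, XEN1 or XEN5 (adjusted p up to 0.0934), without pXEN2, pXEN4 or pXEN6 (up to 0.0806) and without pXEN2, pXEN4, pXEN6, XEN1 or XEN5 (up to 0.0961). Lrp1, an endocytic receptor, had 1.97, 0.854 and 3.44 CPM in pXEN and 21.0, 10.8 and 12.2 in XEN (log2 fold change -2.78 with SE 0.50, adjusted p = 0.00886), and Slc17a9, a vesicular nucleotide transporter, was the only call of 29 solute carriers that are in no other list, at 4.31 ± 1.55 and 0.269 ± 0.264 CPM (log2 fold change 3.70 with SE 0.67, adjusted p = 0.00917). Of 2 tested Hox genes Hoxd13, a gene of posterior mesoderm, was higher in XEN at 0, 0 and 1 counts in pXEN and 4, 13 and 11 in XEN (adjusted p = 0.0236, lost without pXEN2, pXEN4, XEN2 or XEN5, up to 0.0885).

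Histone and noncoding transcripts are readable here because total RNA was sequenced. Of 54 histone genes 6 were higher in XEN (3 without pXEN2, XEN1 or XEN2) and 1 in pXEN, with a median of -0.07. The shares over all genes were 3.63% and 0.918%. Reads of near-identical copies make single histone genes uncertain. Hist1h3d had 14.8, 13.1 and 24.4 CPM in pXEN and 76.8, 100.1 and 69.8 in XEN (log2 fold change -2.23 with SE 0.27, adjusted p = 0.00103), and Hist1h1b averaged 80.8 ± 26.3 and 196 ± 23 (adjusted p = 0.0145). The linker histone gene Hist1h1c went the other way with H1f0, at 737, 711 and 850.3 and 520.2, 432 and 422 CPM (adjusted p = 0.0341, lost without pXEN2, pXEN6, XEN2 or XEN5, up to 0.132). Of 23 noncoding RNAs the nuclear RNAs Malat1 and Neat1 and the RNase P RNA Rpph1 were higher in XEN, at 397, 669.9 and 356 and 805, 1001 and 1044 CPM for Malat1 (log2 fold change -1.0 with SE 0.25, adjusted p = 0.0413) and 17.8, 41.0 and 14.3 and 62.3, 103 and 148 for Neat1 (log2 fold change -2.10 with SE 0.42, adjusted p = 0.0206). The Malat1 call was lost without pXEN2, pXEN6, XEN1, XEN2 or XEN5 (adjusted p up to 0.176), the Neat1 call without pXEN2, pXEN6, XEN2 or XEN5 (up to 0.0834) and the Rpph1 call without pXEN2, pXEN4, XEN1, XEN2 or XEN5 (up to 0.185).

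Genes of ribosomal proteins and of oxidative phosphorylation showed no called member. This is near the shares over all genes tested, 0.918% higher in pXEN and 3.63% higher in XEN. None of 49 ribosomal protein genes (median -0.01) and none of 40 nuclear genes of oxidative phosphorylation (median 0.15, 34 above zero) passed edgeR's test or DESeq2. At an unadjusted p under 0.05, 0 of the ribosomal protein genes and 1 of the oxidative phosphorylation genes differed. Of 34 genes of DNA methylation and Polycomb complexes only Dnmt3l was called, and none of 16 primed epiblast and germline genes was by edgeR (4 at an unadjusted p under 0.05, 2 by DESeq2). Of those 16, 7 had at most 3 counts over each group, and the fit on the 6 libraries alone tested 3. Scaling by other methods moved the median of all genes by -0.0116 to 0.00735 on the log2 scale and changed the sign of no list median but that of the epithelial and junction list, which was 0.00. When 1 line was left out, 14 of the 40 list medians changed sign, all of them between -0.16 and 0.11.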

How the data were processed

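Total RNA of 8 mouse lines was sequenced after removal of ribosomal RNA with a directional kit, per the labels' protocols. The deposited tables hold 1 unstranded and 2 stranded columns of whole-number counts for each gene, per the file headers and values. The submitters' processing notes name STAR 2.5.1, CASAVA 1.8.2, DESeq2 without a version, Trimmomatic 0.33 and the build mm10, with no roles. The sources used here do not give the annotation. The reverse-strand column held 98.9% to 99.3% of stranded counts in the 6 lines and was used. The rows of read classes, 73.4% to 78.3% of reads, stayed out of library sizes and tests. Groups follow the titles. The tables of the pXEN lines carry the name mouse XENP and matching line numbers.

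All 8 mouse libraries were fitted with edgeR 4.0.16 under R 4.3.3 (TMM scaling, filterByExpr with a minimum count of 10, robust quasi-likelihood test, 5 residual degrees of freedom, Benjamini-Hochberg threshold 0.05 over all tested genes). The standard error is the absolute log2 fold change over the square root of F. CPM are normalized to the scaled library size. Where a group had 0 counts, the fold was computed against a floor of 3 counts per group (0.299 CPM in pXEN, 0.302 in XEN) and is a lower bound, and intervals are exact 95% counting intervals. Both cover counting error only. In counts simulated for this comparison over 10449 genes, 73.4% of 4-fold and 8.25% of 2-fold changes were recovered, and 8 of 85 calls were false. Small differences are therefore often missed.

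The comparison, the 40 gene lists and the named genes were chosen with earlier results of these data known. Named genes are fixed anchors, 12 genes per direction, 8 abundant genes and up to 4 called members per list. The 12 had the largest log2 fold changes among called genes with a mean of at least 10 CPM in the higher group. The 8 were the most abundant called genes with at least a 2-fold difference. Both sets left out matrix and fibroblast genes and symbols that start with Gm and a digit, Mir or Snor or end in Rik. Other genes were chosen after their values were seen. Gene coordinates are from GENCODE vM21 (GRCm38), which matched 10501 of 10895 tested symbols. Promoters are from RefSeq. Alternatives were DESeq2 1.42.0, other scalings and filters, the 6 libraries alone, removal of Rn45s, unstranded counts, sex as a covariate, a test against a fold of 1.5 and leaving out each line. The rat libraries were not analysed here, and a few genes counted in the lists are not reported here by name.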

Additional observations from a re-analysis of the deposited data

How the results depend on the processing

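No called gene was called in the opposite direction in any alternative. Tested against a fold of 1.5, 60 genes were higher in pXEN (57 outside the matrix and fibroblast genes). Leaving out 1 line at a time gave 63 to 86 genes higher in pXEN (61 to 81 outside those genes) and 255 to 362 higher in XEN (205 to 309 outside). The lowest counts came without XEN1 in the first direction and without pXEN2 in the second, and without XEN1 48 of the 100 genes higher in pXEN were still called. The other alternatives gave 68 to 146 genes higher in pXEN and 276 to 548 higher in XEN. Sex as a covariate gave 68 and 320. Of the 496 called genes 238 kept their call in every alternative that tested them, as did 73 of the 114 that the rule names as called. No paired analysis was possible because pXEN and XEN share only the replicate number 2. With 3 lines a group and at most 2418423 counts per line outside Rn45s, small differences and genes of low counts were not resolved.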

Other observations

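Genes with zinc finger symbols (Zfp, Zscan and Zkscan with a number) leaned toward pXEN. This group was chosen after its values were seen. Of 310 tested, 10 were higher in pXEN (3.23%, beside 0.918% of all genes tested) and 5 in XEN (1.61%, beside 3.63%), and 65.5% had a positive log2 fold change, beside 49.2% of all genes. That share was 60.8% to 69.6% when 1 line was left out and 64.4% to 66.5% under other scalings and without Rn45s. Without XEN1 the genes called higher in pXEN fell to 6. Besides Zfp42 and Zscan10, Zfp229 had 19.7, 32.2 and 16.1 CPM in pXEN2, pXEN4 and pXEN6 and 3.51, 6.39 and 6.34 CPM in XEN1, XEN2 and XEN5 (log2 fold change 2.03 with SE 0.37, adjusted p = 0.00926). Zfp105 had 15.5, 8.26 and 23.2 and 0.779, 0.278 and 2.38 CPM (log2 fold change 3.68 with SE 0.61, adjusted p = 0.00638), and Zfp709, at low counts, 3.62, 6.55 and 2.87 and 0, 0 and 0.264 CPM (adjusted p = 0.00720). These 3 calls held without any 1 line, and the ES lines had 69.7 ± 25.3, 21.9 ± 5.07 and 8.0 ± 0.263 CPM. The related zinc finger factor Sall1, outside the counted symbols, had 60.9, 47.5 and 55.1 CPM in pXEN and 19.1, 23.1 and 22.2 in XEN (log2 fold change 1.34 with SE 0.24, adjusted p = 0.00809).

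Xist differed within the female lines, at 784 CPM in pXEN4, 150 in pXEN6 and 659 in XEN1. The female ES line ES3 had 14.0 CPM. The homeobox gene Rhox5 was high in every pXEN line, at 194, 263 and 294 CPM, and varied within XEN, at 4.29, 147 and 28.8 CPM in XEN1, XEN2 and XEN5 (adjusted p = 0.567).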
